A study of Homo sapiens with 18 samples.

Results

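The proteasome genes described here are the protein-coding genes whose symbol begins with PSMA, PSMB, PSMC, PSMD, PSME, PSMF or PSMG and a number, together with POMP. There were 50 of them among the 58336 genes of the count table. The rule goes by symbol and uses no measured value, but it was chosen with earlier results of these data known. Of the 50, 47 had enough reads to be tested, out of 19393 genes tested in all. The 3 that were not tested, PSMA8, PSMB8 and PSMB11, are described with their counts.

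The cells were HEK293A, a human line of embryonic kidney origin that grows attached. They were either wild type (WT) or labelled as lacking both LATS1 and LATS2 (DKO), the kinases of the Hippo pathway that restrain the coactivators YAP and TAZ. Each genotype was exposed for 4 h to water, to 250 uM ZnCl2 or to 50 uM CdCl2, with 3 replicates in each of the 6 groups and 18 libraries in all. All libraries were stranded poly(A) mRNA libraries from this line, and neither the number of knockout clones nor the position of the edits is given in the sources used here, so an effect of the genotype and of the particular cells carrying it cannot be told apart.

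The proteasome is the barrel-shaped protease that degrades proteins tagged with ubiquitin. Its core particle stacks rings of alpha subunits, which gate the entrance, on rings of beta subunits, some of which carry the protease sites. A regulatory particle caps the barrel, with a base whose ATPases unfold the substrate and a lid whose subunits include the enzyme that removes ubiquitin. Cells that lose proteasome activity raise the mRNAs of most subunits together through the transcription factor NRF1 (gene NFE2L1), and cadmium and zinc ions are known to damage proteins through their thiol groups.

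Levels are CPM, the reads of a gene relative to the library total scaled with edgeR's TMM factors. Changes are edgeR log2 fold changes ± an approximate standard error, and a gene is called higher or lower at a Benjamini-Hochberg adjusted p under 0.05 in edgeR's quasi-likelihood test. Groups whose libraries do not overlap are common here. Against water this held for 63.4% of all tested genes for zinc and 64.8% for cadmium in WT, and for 62.2% and 54.4% in DKO. Between the genotypes it held for 66.9% in water, 68.4% in zinc and 69.4% in cadmium. Between cadmium and zinc it held for 56.4% in WT and 55% in DKO. Total counts ran from 25478614 to 37148046 per library, and the members together took 0.711 to 0.767% of them. LATS1 lay at 77.3 to 97.3 CPM in the WT libraries and at 44.0 to 54.5 CPM in the DKO libraries. LATS2 in water lay at 16.2 to 16.5 CPM in WT and at 18.2 to 18.9 CPM in DKO, so its mRNA level in water does not check the genotype labels. Under zinc LATS2 lay at 44.3 to 50.2 CPM in WT and at 36.0 to 40.4 CPM in DKO. Under cadmium it lay at 39.0 to 44.7 CPM in WT and at 23.8 to 25.7 CPM in DKO. HEK293 genes were present in every group (VIM, NEFM, INA and PAX2 summed to 331 to 498 CPM in WT and 179 to 238 CPM in DKO), while 8 blood markers summed to 2.50 to 5.69 CPM, with HBB at 0. The HEK293 sum hides opposite directions. Among the 3 of these genes that were tested, 2 were higher and 1 lower in DKO water than in WT water. Replicate 3 of zinc-treated WT stood apart from the other libraries of its group (chi-square per degree of freedom of 4.96 and 5.04 against 1.88), and without it the zinc comparison in WT lost PSMD9 and PSMC5 and gained PSME1.

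In WT cells in water the core beta genes had the highest median level per length of transcript among the roles. Per kilobase of exon, the 7 core beta genes lay at 67.2 to 149 CPM with a median of 117, led by PSMB5, which carries the chymotrypsin-like site. The 6 ATPases lay at 7.76 to 132 CPM per kilobase (median 51.4), the 3 other base subunits at 45.8 to 96.8 (median 65.8) and the 8 lid subunits at 9.34 to 86.2 (median 26.7). The 5 activators and inhibitors lay at 14.2 to 61.1 CPM per kilobase (median 30.3), with PSME3, the nuclear activator gamma, at the top. The 7 core alpha genes spread most, from 1.49 to 134 CPM per kilobase (median 29.5), and the 7 assembly factors above 5 CPM lay at 1.13 to 95.4 (median 29.7). The merged exon length of all annotated transcripts was used, so a gene with many long minor isoforms is set too low on this scale.

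Several low values rest on how reads were assigned, which is not given in the sources used here. PSMA2 and PSMA6 (alpha subunits), PSMD9 (an assembly chaperone) and PSMB10 share exons on the same strand with read-through genes, and in WT water they had mean levels of 9.32, 9.70, 9.92 and 0.946 CPM. PSMA1, PSMB9, PSME2 and PSMF1 also share exons with another gene on the same strand, and the effect on their counts was not tested. PSMD5, a chaperone of base assembly, had 72 reads on its own strand over all libraries, and the deposited count that ignores strand was 335% of that. The same strand-blind count held 54.6% of the own-strand reads of PSMC1, 46.8% of those of PSMD7, 83.0% of those of PSMC5 and 45.5% of those of PSMC3IP, which overlap genes on the opposite strand. On the own strand the mean WT water level was 78.6 CPM for PSMC1, 144 for PSMD7, 234 for PSMC5 and 33.5 for PSMC3IP, against 47.8, 68.6, 200.5 and 16.7 CPM in the strand-blind counts. The levels below are strand-blind, and for these genes uncertain.

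**Figure D1:**
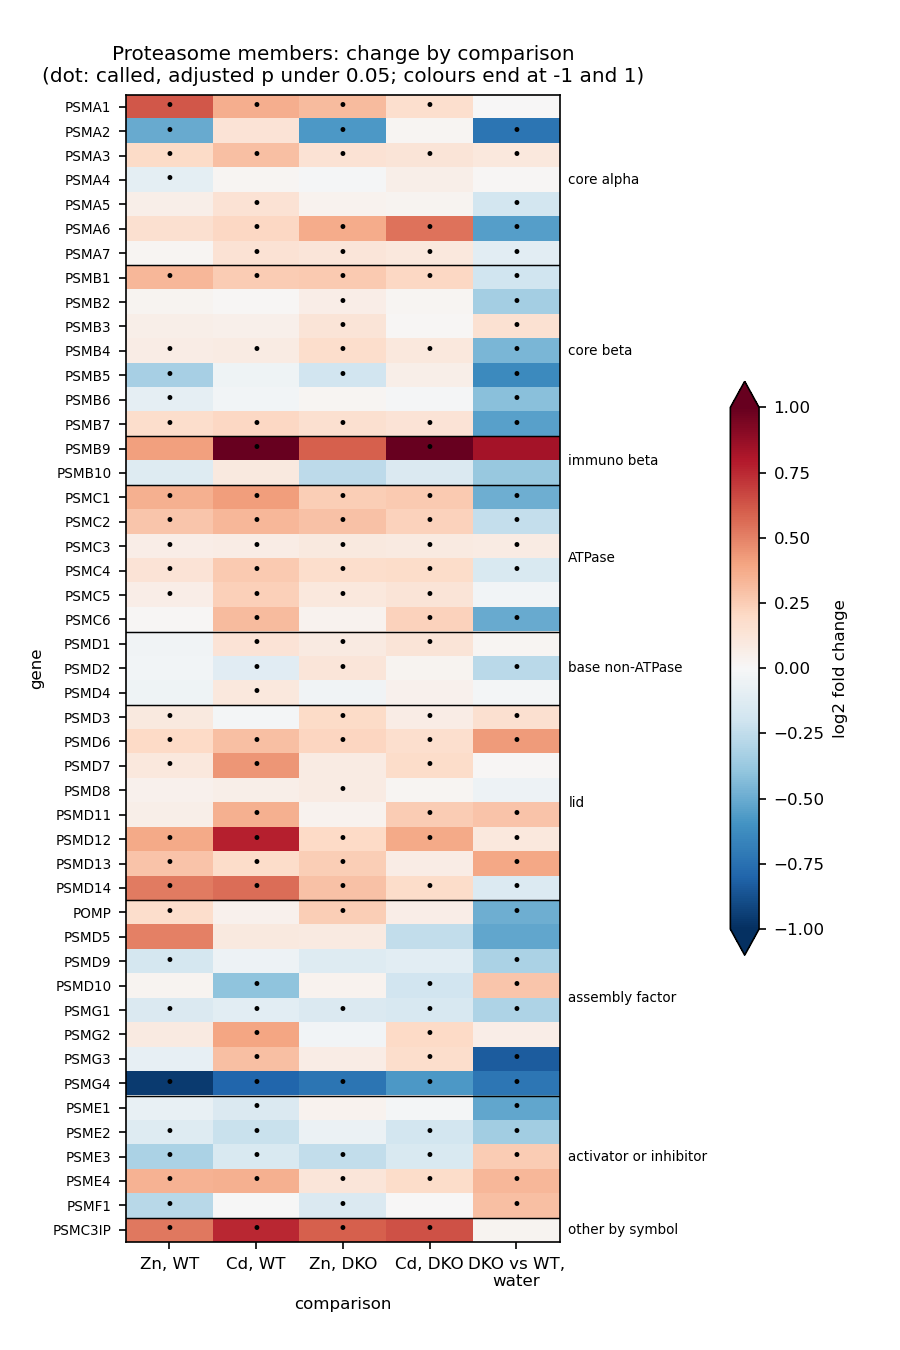
Log2 fold change (colour, ending at -1 and 1) of the 47 tested members (rows, by role) in 5 comparisons (columns), with a dot where edgeR's adjusted p was under 0.05. The ATPase and lid rows are mostly red under both metals and in both genotypes, and PSMG4 is blue throughout. The core beta rows other than PSMB3 are blue in the column of DKO against WT.

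Cadmium was followed by higher mRNA of most members in WT cells. Of the 47 tested, 27 were higher and 7 lower, where 61.7% of all tested genes were called (30% higher and 31.7% lower). The median change of the members was 0.14 against -0.01 for all genes. Only PSMB9 passed 2-fold, and of the abundant members PSMD12 rose furthest, to 1.72-fold of water. Scaled by library size alone, the members numbered 19 higher and 16 lower, and all genes together had a median of -0.13. Relative to the median of all genes, 36 of 47 members lay above it. Calls lost under that scaling include those of PSMD1, PSMD13 and PSMA6.

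With zinc in WT 19 of 47 members rose and 10 were lower, where 61.3% of all tested genes were called (29.4% higher and 32% lower). The median of the members was 0.06 against -0.01 for all genes, and scaling by library size alone gave 14 higher and 15 lower. In DKO cells zinc gave 25 higher and 6 lower, where 55.9% of all genes were called (28.2% higher, 27.7% lower), and 14 and 11 with library size alone. Cadmium in DKO gave 25 higher and 5 lower, where 47% of all genes were called (23.2% higher, 23.8% lower). With library size alone that became 10 higher and 14 lower, with the median of all genes at -0.12, and 37 of 47 members lay above that median. Calls lost under that scaling include PSMD6, PSMD7, PSMD14, PSMA1, PSMD1, PSMG2 and PSMG3 for cadmium in DKO, and PSMD1, PSMD2 and PSME4 for zinc in DKO. The share of higher calls among all called genes moved in the same way, from 48.6 to 35.5% for cadmium in WT and from 49.3 to 28.8% in DKO, and from 50.4 to 37.2% for zinc in DKO. The share of counts from mitochondrial genes also differed, at 4.75 to 4.90% in WT water, 5.12 to 5.33% in WT zinc and 5.56 to 5.69% in WT cadmium, against 4.19 to 4.53% in DKO under all 3 treatments. Its part in these results was not tested.

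In WT the lid had the highest median response among the roles with 3 or more tested genes. There, 6 of its 8 genes rose with cadmium, with a median of 0.33 (5 higher and 2 lower with library size alone), and 6 of 8 rose with zinc, with a median of 0.15 (4 with library size alone). In DKO, 6 of 8 rose with either metal, with medians of 0.18 for cadmium and 0.20 for zinc (2 and 5 with library size alone). Over all tested genes the share higher was 30% with cadmium and 29.4% with zinc in WT, and 23.2% and 28.2% in DKO.

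PSMD12 (ENSG00000197170, chromosome 17, 67337916 to 67366627 on GRCh38), a scaffold subunit of the lid, stood at 189, 184 and 182 CPM in WT water. It stood at 240.2, 243 and 239 CPM in WT zinc and at 309, 318 and 327 CPM in WT cadmium. In DKO the 3 libraries gave 205, 199 and 195 CPM in water, 225, 228 and 235 CPM in zinc and 261, 259 and 259 CPM in cadmium. All treated libraries lay above the water libraries of their genotype, and the cadmium libraries above the zinc ones. The change in WT was 0.38 ± 0.03 for zinc and 0.78 ± 0.03 for cadmium (edgeR, adjusted p = 4.84e-24), and in DKO 0.20 ± 0.03 and 0.38 ± 0.03. The cadmium response was thus smaller in DKO (difference -0.40 ± 0.04 on the log2 scale, edgeR adjusted p = 6.45e-10), the largest such difference among the members called.

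PSMD14 (ENSG00000115233, chromosome 2, 161308038 to 161411717) encodes the deubiquitinase of the lid. Its WT libraries gave 144, 141 and 144 CPM in water, 204, 200.3 and 211 in zinc and 208, 209 and 214 in cadmium. The DKO libraries gave 134, 127 and 129 CPM in water, 159, 158 and 159.9 in zinc and 148, 145 and 149.5 in cadmium. The WT groups under metal did not overlap water, and in DKO the rise was smaller, with zinc above cadmium. PSMD14 rose in WT by 0.52 ± 0.03 with zinc and 0.55 ± 0.03 with cadmium, and in DKO by 0.29 ± 0.03 and 0.18 ± 0.03. The differences of the responses were -0.23 ± 0.04 for zinc and -0.37 ± 0.04 for cadmium (edgeR, adjusted p = 6.28e-05 and 6.38e-09).

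PSMD7, which pairs with the deubiquitinase in the lid, stood at 72.5, 67.0 and 66.4 CPM in WT water, at 75.4, 73.5 and 72.9 in zinc and at 92.8, 91.1 and 95.2 in cadmium. In DKO it stood at 72.1, 66.9 and 68.2 CPM in water, 73.7, 72.5 and 72.7 in zinc and 79.3, 77.2 and 78.8 in cadmium. Cadmium libraries lay above all others in each genotype and the zinc libraries just above the water ones, but on the gene's own strand zinc overlapped water in WT and the zinc change there was 0.07 ± 0.03 and not called (edgeR, adjusted p = 0.0643). The cadmium change was 0.44 ± 0.04 in WT and 0.19 ± 0.04 in DKO, with a difference of -0.26 ± 0.05 (edgeR, adjusted p = 0.000233).

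PSMD6 and PSMD13, further lid subunits, were higher in DKO from the start. PSMD6 gave 87.0, 80.9 and 87.8 CPM in WT water, 96.0, 101 and 97.2 in zinc and 104, 108 and 104 in cadmium, against 117, 114 and 112 in DKO water, 133, 133 and 132 in DKO zinc and 129.5, 129 and 127 in DKO cadmium. PSMD13 gave 112, 104 and 111 CPM in WT water, 133, 132 and 134 in zinc and 125, 123 and 123 in cadmium, against 144, 148 and 137, then 170.2, 170.5 and 168, then 151, 151 and 149 in DKO. No DKO library of either gene fell to the level of a WT library under the same treatment. PSMD13, like PSMD3, had a larger change with zinc (0.29 ± 0.03 in WT and 0.25 ± 0.03 in DKO) than with cadmium (0.18 ± 0.03 in WT, and 0.07 ± 0.03 in DKO, which missed the threshold with an adjusted p of 0.0501 in edgeR and turned to -0.04 with library size alone). The direct comparison of cadmium with zinc in WT gave -0.11 ± 0.03 for PSMD13 (edgeR, adjusted p = 0.00552) and 0.40 ± 0.03 for PSMD12.

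**Figure D2:**
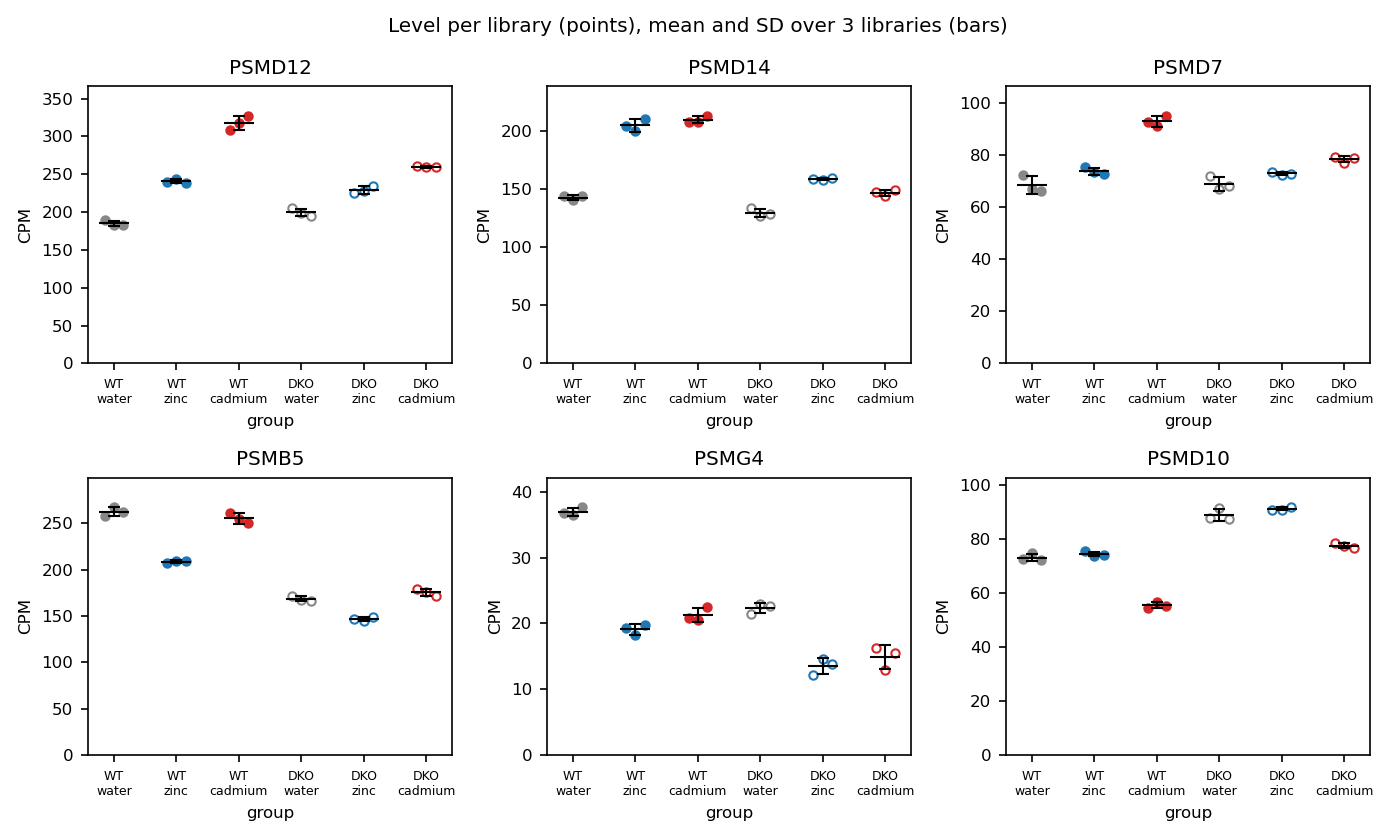
CPM (y axis, from 0) of 6 members in the 6 groups (x axis), one point per library with the mean and SD over 3 libraries. PSMD12 climbs from 182 to 189 CPM in WT water to 309 to 327 CPM in WT cadmium, PSMG4 falls under both metals, PSMB5 dips in zinc and PSMD10 in cadmium.

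The promoters of the members were searched for the core of the antioxidant response element, TGACNNNGC on either strand, the kind of site that NRF1 and NRF2 bind as dimers with small MAF proteins. RefSeq start sites on GRCh38.p14 were found for 44 of the 50 members, with 54 starts. The element lay within the 250 bases before 13 of the 54 starts (24.1%), against 10.9% of all 35116 starts. Of the 13 members that held it, 5 rose and 3 fell with cadmium in WT, and of the 28 tested members without it 17 rose and 4 fell. Over all tested genes 30% were higher and 31.7% lower. The 4 stretches below were picked from these 13 for the different responses of their genes. Their matches share the fixed letters of TGACNNNGC and differ in the others, and the part of the element in the responses was not tested. PSMD12 rose most with cadmium in WT among members above 5 CPM. PSMD3, a lid subunit, rose with zinc (0.10 ± 0.03) and not with cadmium (-0.02 ± 0.03) in WT. PSMB3 was called with neither metal in WT, and PSME1 fell with cadmium. Each stretch is the part of the 250 bases that lies outside annotated exons, 5′ to 3′ on the strand of the gene, with the element in capitals. It starts 165, 37, 104 and 86 bases before the RefSeq start, in that order. The bases between the end of each stretch and that start lie in annotated exons and are not shown.
PSMD12, minus strand, chr17:67366628-67366827: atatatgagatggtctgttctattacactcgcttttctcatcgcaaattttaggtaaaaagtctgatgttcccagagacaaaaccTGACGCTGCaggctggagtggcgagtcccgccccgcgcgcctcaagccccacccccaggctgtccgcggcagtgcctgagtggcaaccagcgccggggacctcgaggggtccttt
PSMD3, plus strand, chr17:39980557-39980796: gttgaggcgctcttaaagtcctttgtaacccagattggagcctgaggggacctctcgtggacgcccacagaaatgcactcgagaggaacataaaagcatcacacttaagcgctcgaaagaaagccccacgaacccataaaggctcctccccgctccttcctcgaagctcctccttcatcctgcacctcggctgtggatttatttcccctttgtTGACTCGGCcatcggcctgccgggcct
PSMB3, plus strand, chr17:38752491-38752735: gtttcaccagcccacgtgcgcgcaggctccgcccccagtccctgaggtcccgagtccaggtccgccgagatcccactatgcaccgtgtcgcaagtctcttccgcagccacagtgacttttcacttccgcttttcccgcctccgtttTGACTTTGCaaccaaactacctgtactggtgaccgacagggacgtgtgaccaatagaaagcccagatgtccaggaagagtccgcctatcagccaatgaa
PSME1, plus strand, chr14:24135944-24136157: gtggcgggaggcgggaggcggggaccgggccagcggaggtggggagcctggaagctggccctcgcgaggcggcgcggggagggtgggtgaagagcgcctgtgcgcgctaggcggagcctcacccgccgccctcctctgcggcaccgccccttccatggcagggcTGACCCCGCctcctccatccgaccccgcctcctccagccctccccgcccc

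Other motifs were counted in the same windows, on both strands. The site of ETS factors, CCGGAAG, lay before 24.1% of the member starts and 8.52% of all starts, and CCAAT before 38.9% and 32%. A unit of the heat shock element, TTCNNGAA, lay before 5.56% of the member starts and 6.62% of all starts, and GAANNTTC before 3.7% and 5.78%. A match of letters is a description of the window and not a measured site.

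The ATPases of the base moved together under cadmium. All 6 rose in WT, with a median of 0.29 and a range of 0.08 to 0.42, and all 6 rose in DKO, with a median of 0.20. With library size alone 5 rose in WT and 3 in DKO, and PSMC3 had the opposite sign in both. Zinc raised 5 of the 6 in each genotype (3 in each with library size alone), and PSMC6 was the exception, with 0.01 ± 0.03 in WT and 0.04 ± 0.04 in DKO. Over all tested genes 30% were higher with cadmium in WT and 23.2% in DKO, and 29.4% and 28.2% with zinc. PSMC1 (ENSG00000100764, chromosome 14, 90256495 to 90275429), an ATPase of the ring, gave 48.4, 46.2 and 48.9 CPM in WT water, 60.5, 61.6 and 61.1 in zinc and 62.8, 64.4 and 64.7 in cadmium. In DKO it gave 35.2, 35.1 and 32.1 CPM in water, 41.2, 39.0 and 40.6 in zinc and 41.9, 39.9 and 40.2 in cadmium. Both metals lay above water in each genotype, and every DKO library lay below every WT library in the strand-blind counts. On the own strand the DKO cadmium libraries, at 78.7, 79.0 and 75.2 CPM, overlapped WT water, at 81.0, 74.8 and 80.1 CPM. The cadmium change was 0.42 ± 0.04 in WT (edgeR, adjusted p = 1.51e-11) and 0.26 ± 0.04 in DKO, and on the gene's own strand 0.57 ± 0.04 and 0.32 ± 0.04.

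The 3 base subunits that are not ATPases did not share a direction. With cadmium in WT, PSMD1, a scaffold, rose by 0.14 ± 0.03, PSMD4, a ubiquitin receptor, rose by 0.10 ± 0.03, and PSMD2, the other scaffold, fell by 0.11 on the log2 scale (± 0.02), while with library size alone none was higher and PSMD4 was at -0.02. PSMD2 was the most highly counted member, with 531, 526 and 526 CPM in WT water, 523, 515 and 516 in zinc and 494, 495 and 478 in cadmium. In DKO it gave 436, 436 and 438 CPM in water, 468, 476 and 477 in zinc and 456, 442 and 439.5 in cadmium. The WT libraries thus went down under cadmium and the DKO libraries up under zinc, and the differences of the responses were 0.14 ± 0.04 for each metal (edgeR, adjusted p = 0.00208 for zinc and 0.00231 for cadmium). PSMD1 gave 248, 224 and 239.9 CPM in WT water, 231, 228 and 236 in zinc and 262, 259.5 and 260.5 in cadmium. Its DKO libraries gave 248, 239.8 and 232 CPM in water, 258, 250.4 and 258 in zinc and 262, 264 and 262 in cadmium. Cadmium lay above water in both genotypes, and zinc lay above water in DKO alone, with a difference of 0.13 ± 0.04 between the zinc responses (edgeR, adjusted p = 0.0307). That difference was not called with RLE scaling, library size alone, no filter or DESeq2.

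Among the 7 tested alpha subunits, 5 rose with cadmium in WT and 4 in DKO, and none fell (2 and 1 higher with library size alone, with 1 lower in each). With zinc 2 rose and 2 fell in WT, and 4 rose and 1 fell in DKO. Among all tested genes 30% were higher with cadmium in WT and 23.2% in DKO. For zinc 29.4% were higher and 32% lower in WT, near the shares of the alpha genes. In DKO these were 28.2% and 27.7%. PSMA1 (ENSG00000129084, chromosome 11, 14504874 to 14643635) had the largest zinc rise of the members in WT, from 67.1, 63.1 and 65.6 CPM in WT water to 101, 102 and 98.5 CPM in zinc, 1.54-fold, with 84.5, 82.1 and 84.7 CPM in cadmium. Its DKO levels were 69.6, 66.0 and 61.3 CPM in water, 82.6, 83.9 and 78.7 in zinc and 73.5, 74.7 and 71.9 in cadmium. The genotypes overlapped in water and separated under both metals. The changes were 0.62 ± 0.04 with zinc (edgeR, adjusted p = 7.43e-17) and 0.36 ± 0.04 with cadmium in WT, and 0.32 ± 0.04 and 0.16 ± 0.04 in DKO. Both responses were smaller in DKO, by -0.30 ± 0.06 for zinc and -0.20 ± 0.06 for cadmium.

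PSMA2 and PSMA6 were the lowest of the tested alpha genes. PSMA2 gave 9.25, 9.18 and 9.53 CPM in WT water, 6.20, 6.79 and 6.70 in zinc and 9.87, 10.4 and 10.5 in cadmium, and in DKO 5.89, 5.08 and 5.88, then 4.11, 3.26 and 3.91, then 6.26, 5.39 and 5.34. It fell with zinc by 0.51 ± 0.09 in WT and 0.58 ± 0.10 in DKO on the log2 scale. Its cadmium change in WT was 0.13 ± 0.08 and not called, while on its own strand it was 0.18 ± 0.08 and called (edgeR, adjusted p = 0.0418). PSMA6 gave 8.98, 10.2 and 9.92 CPM in WT water, 11.6, 9.63 and 11.4 in zinc and 10.7, 11.1 and 11.8 in cadmium, and in DKO 7.23, 6.40 and 6.38, then 8.70, 8.40 and 8.59, then 9.41, 9.68 and 10.02. It rose with cadmium by 0.20 ± 0.08 in WT and 0.55 ± 0.08 in DKO, the highest gain of DKO over WT among the members called (difference 0.34 ± 0.11, edgeR adjusted p = 0.0223). Both genes share exons with a read-through gene, as given above. PSMA8, the alpha subunit of the testis, had 0 counts in all 18 libraries, which allows a level of up to 0.0808 to 0.118 CPM per library (3 counts, counting error only).

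The beta subunits of the constitutive core changed little under cadmium. With cadmium 3 of 7 rose in each genotype and none fell, with medians of 0.05 and 0.06, and with library size alone 2 rose and 3 fell in WT and 1 rose and 3 fell in DKO. Among all tested genes 30% were higher and 31.7% lower in WT, and 23.2% and 23.8% in DKO. PSMB1, a structural beta subunit, gave 253, 240.3 and 243 CPM in WT water, 309.8, 306 and 309 in zinc and 290.2, 291 and 296 in cadmium, and rose by 0.33 ± 0.03 and 0.25 ± 0.03. For DKO the levels were 221, 211 and 209 CPM in water, 259, 258 and 253 in zinc and 249.9, 245 and 245 in cadmium. PSMB1 libraries under metal lay above water in both genotypes.

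PSMB5 went the other way under zinc. This gene (ENSG00000100804, chromosome 14, 23016543 to 23035230) encodes the subunit with the chymotrypsin-like site, the target of bortezomib. It gave 257, 267 and 262 CPM in WT water, 207, 209 and 209 in zinc and 261, 254 and 249.8 in cadmium. The DKO libraries had 172, 168 and 166 CPM in water, 147, 145 and 149 in zinc and 179, 176 and 171 in cadmium. Zinc libraries were the lowest of each genotype, with no overlap. The zinc change was -0.33 ± 0.03 in WT (edgeR, adjusted p = 4.84e-13) and -0.20 ± 0.03 in DKO, while cadmium gave -0.04 ± 0.03 and 0.06 ± 0.03, neither called.

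The beta subunits of the immunoproteasome, which replace the constitutive ones in immune cells and after interferon, were near the limit of counting. PSMB9 had 20 reads over the 3 WT water libraries, 26 in zinc and 45 in cadmium, and 39, 56 and 71 in DKO. Its WT libraries gave 0.154, 0.198 and 0.284 CPM in water and 0.595, 0.444 and 0.404 CPM in cadmium, and its change of 1.13 ± 0.37 was called (edgeR, adjusted p = 0.00799), as was 0.999 ± 0.29 in DKO. Without replicate 1 of WT cadmium, PSMB9 was no longer called in WT. PSMB8 had 6, 8 and 13 reads per group in WT and 25, 33 and 19 in DKO, and PSMB11, the beta subunit of the thymus, had at most 9. PSMB10 was not called in any of the 4 metal comparisons, whereas from the reads of its own strand alone it was called higher with cadmium in WT. Of 14 tested genes of the interferon response and antigen presentation, 2 were higher and 7 lower with cadmium in WT, and 3 were higher and 3 lower in DKO. Of all tested genes 30% were higher and 31.7% lower in WT, and 23.2% and 23.8% in DKO. With library size alone the list gave 2 higher and 10 lower in WT, and 0 and 4 in DKO.

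Assembly factors split by gene. With cadmium 2 of 8 rose and 3 fell in each genotype (with library size alone, 2 and 5 in WT and 0 and 4 in DKO). With zinc 1 rose in each while 3 fell in WT and 2 in DKO. Among all tested genes 30% were higher and 31.7% lower with cadmium in WT, and 23.2% and 23.8% in DKO. For zinc these shares were 29.4% and 32% in WT, and 28.2% and 27.7% in DKO. The cadmium counts in WT are thus near the background. PSMG4 (ENSG00000180822, chromosome 6, 3231403 to 3303373), a chaperone of the alpha ring, fell further than any other member. It gave 36.9, 36.4 and 37.7 CPM in WT water, 19.2, 18.2 and 19.8 in zinc and 20.9, 20.6 and 22.6 in cadmium. DKO cells had 21.5, 23.0 and 22.7 CPM in water, 12.1, 14.5 and 13.9 in zinc and 16.3, 12.9 and 15.5 in cadmium. Neither metal overlapped water in either genotype, and the untreated DKO libraries lay at about the level of WT under cadmium. The changes were -0.95 ± 0.06 with zinc (0.516-fold, edgeR adjusted p = 1.96e-16) and -0.79 ± 0.06 with cadmium in WT, and -0.73 ± 0.07 and -0.58 ± 0.07 in DKO. The difference of the cadmium responses, 0.22 ± 0.09, was not called (edgeR, adjusted p = 0.073). PSMG1, which forms a dimer with PSMG2 in the same process, was lower with both metals in both genotypes, by -0.11 to -0.16, whereas PSMG2 was higher with cadmium, by 0.40 ± 0.05 in WT and 0.20 ± 0.05 in DKO.

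PSMG3, the partner of PSMG4, gave 85.5, 83.8 and 78.3 CPM in WT water, 77.7, 77.6 and 78.4 in zinc and 103, 97.9 and 104 in cadmium. Its DKO levels were 49.1, 45.7 and 44.7 CPM in water, 50.4, 50.2 and 46.2 in zinc and 54.0, 52.8 and 50.4 in cadmium. Cadmium libraries lay above water in both genotypes, opposite to PSMG4, with changes of 0.30 ± 0.04 and 0.18 ± 0.04. PSMD10 (gankyrin), which helps assemble the base, gave 72.3, 74.7 and 72.0 CPM in WT water, 75.3, 73.7 and 74.1 in zinc and 54.3, 56.6 and 55.1 in cadmium. For DKO the levels were 87.5, 91.2 and 87.1 CPM in water, 90.7, 90.7 and 91.6 in zinc and 78.6, 77.4 and 76.4 in cadmium. Cadmium alone lowered it, by 0.40 ± 0.04 in WT (edgeR, adjusted p = 1.2e-12) and 0.19 ± 0.03 in DKO on the log2 scale. POMP, the maturation factor of the core, rose with zinc by 0.18 ± 0.03 in WT and 0.24 ± 0.03 in DKO, and its cadmium changes of 0.04 ± 0.03 and 0.06 ± 0.03 were not called (with library size alone they had the opposite sign).

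The activators that bind the core in place of the regulatory particle differed by kind, with 1 of 5 activators and inhibitors higher and 3 lower under each metal in WT (1 and 4 with library size alone). Over all tested genes 30% were higher and 31.7% lower with cadmium in WT, and 29.4% and 32% with zinc. PSME4, a large nuclear activator, rose in all 4 metal comparisons (not with zinc in DKO when scaled by library size alone), from 174, 167 and 176 CPM in WT water to 220.2, 219.9 and 219 in zinc and 214, 228 and 220.4 in cadmium. The DKO libraries had 219, 215 and 216 CPM in water, 229, 238 and 240.5 in zinc and 242, 249 and 249 in cadmium. The DKO water libraries already lay at the level of WT under metal. Its changes were 0.35 ± 0.03 and 0.36 ± 0.03 in WT and 0.12 ± 0.03 and 0.19 ± 0.03 in DKO, and the responses were smaller in DKO by -0.23 ± 0.04 for zinc and -0.17 ± 0.04 for cadmium (edgeR, adjusted p = 5.77e-05 and 0.00165).

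PSME3 fell in the same comparisons. It gave 317, 313 and 315 CPM in WT water, 245, 257 and 256 in zinc and 285, 280.1 and 285 in cadmium, and in DKO 386, 372 and 369, then 321, 310.3 and 319.8, then 342, 337 and 334. Zinc was lowest in both genotypes. The changes were -0.32 ± 0.03 and -0.15 ± 0.03 in WT and -0.24 ± 0.03 and -0.15 ± 0.03 in DKO. PSME2, a subunit of the activator induced by interferon, gave 53.6, 47.3 and 51.3 CPM in WT water, 46.7, 45.4 and 46.6 in zinc and 46.3, 40.7 and 43.3 in cadmium, and in DKO 40.4, 41.0 and 38.1, then 41.0, 36.7 and 37.1, then 38.1, 33.0 and 33.4. It fell with cadmium, by 0.22 ± 0.05 in WT and 0.18 ± 0.06 in DKO, as did its partner PSME1 in WT, by 0.14 ± 0.04 on the log2 scale. PSMF1, an inhibitor of the core, fell with zinc by 0.27 ± 0.03 in WT and 0.15 ± 0.03 in DKO, and with cadmium it was at -0.01 ± 0.03 and 0.00 ± 0.03.

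PSMC3IP is a member by its symbol only: it encodes a partner of recombinases in meiosis, not a subunit. It gave 16.8, 17.4 and 16.0 CPM in WT water, 24.2, 24.9 and 23.0 in zinc and 28.8, 28.4 and 27.4 in cadmium, and in DKO 17.4, 17.5 and 16.3, then 26.5, 25.5 and 25.2, then 26.2, 26.9 and 26.2. Every metal library lay above every water library. The changes were 0.52 ± 0.05 and 0.76 ± 0.05 in WT and 0.60 ± 0.05 and 0.64 ± 0.05 in DKO. From the strand-blind counts neither difference of the responses nor any of the 3 comparisons of DKO with WT was called. On its own strand it was higher in DKO by 0.15 ± 0.05 in water and 0.16 ± 0.04 in zinc, both called, and the cadmium response was smaller in DKO by -0.24 ± 0.07 (edgeR, adjusted p = 0.0064).

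In untreated cells the DKO libraries had lower mRNA of most core beta genes, ATPases and assembly factors, and higher mRNA of most lid genes. Of the 47 members, 12 were higher and 23 lower in DKO water than in WT water, where 62.9% of all tested genes were called (30.8% higher and 32.1% lower). Scaling by library size alone gave 16 higher and 22 lower. The median of the members was -0.14 against -0.02 for all genes. Of the 7 core beta genes 6 were lower, with a median of -0.42, and PSMB3 alone was higher, by 0.16 ± 0.04. Of the 8 lid genes 5 were higher and 1, PSMD14, was lower, with a median of 0.14, and these counts of beta and lid genes were the same with library size alone. PSMB5 was lower by -0.64 ± 0.03 (edgeR, adjusted p = 1.9e-21) and PSMD6 higher by 0.42 ± 0.03 (edgeR, adjusted p = 6.98e-14).

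**Figure D3:**
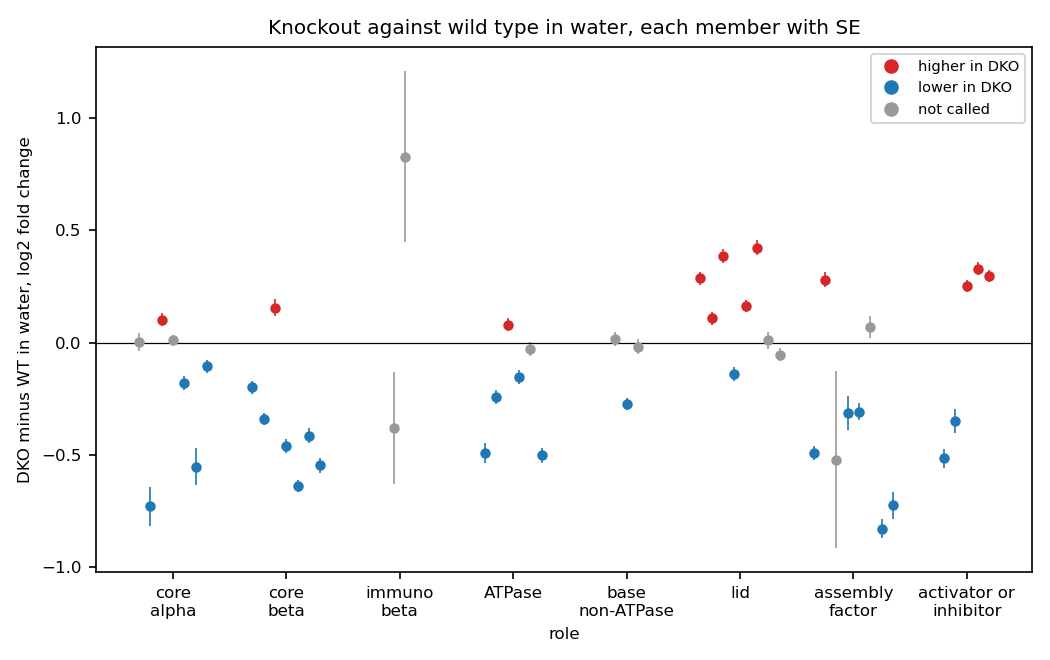
Log2 fold change of DKO against WT in water (y axis) for each tested member by role (x axis), with bars for the standard error. The core beta genes lie between -0.64 and 0.16 with all but PSMB3 below 0, and the lid genes lie between -0.14 and 0.42.

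Among the alpha genes 4 of 7 were lower and 1 higher, among the ATPases 4 of 6 were lower and 1 higher, and among the assembly factors 5 of 8 were lower and 1 higher (with library size alone 3 and 2, 4 and 1, and 5 and 2). In water 32.1% of all tested genes were lower and 30.8% higher. PSMG3 had the lowest change of all, -0.83 ± 0.04 (0.563-fold, edgeR adjusted p = 1.39e-19), followed by PSMA2 at -0.73 ± 0.09 and PSMG4 at -0.72 ± 0.06. The activators split, with PSME3, PSME4 and PSMF1 higher by 0.25 to 0.33 and PSME1 and PSME2 lower by -0.52 ± 0.04 and -0.35 ± 0.05. In comparisons that share no library, 22 members (46.8%) were lower in DKO under all 3 treatments and 10 (21.3%) were higher under all 3. Of all tested genes 20.9% were lower and 22.8% higher under all 3. Under zinc 13 members were higher and 25 lower in DKO (66.7% of all genes called, 34% higher and 32.7% lower), and under cadmium 11 were higher and 32 lower (67.1% called, 32.6% higher and 34.5% lower). The genotypes also differed in markers of other cell types. Epithelial markers, mostly KRT8 and KRT18, summed to 424 to 508 CPM in WT and 2438 to 2723 CPM in DKO, while CDH1 and EPCAM, which define epithelium, were near 0 in both. Fibroblast markers, mostly COL1A1, summed to 8.71 to 12.2 CPM in WT and 31.6 to 46.4 CPM in DKO. The part of these markers in the proteasome values was not tested.

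The cadmium response of the members was smaller in DKO more often than larger. In the test of the difference 11 members had a lower response in DKO and 3 a higher one, where 28.1% of all tested genes were called (14.1% lower and 14% higher). The median difference was -0.06 for the members and 0.01 for all genes, and the counts with library size alone were 10 and 4. Of the 11, 4 were lid genes (PSMD6, PSMD7, PSMD12 and PSMD14), 3 alpha genes (PSMA1, PSMA3 and PSMA5) and 2 ATPases (PSMC1 and PSMC5), with PSMG2 and PSME4. No core beta gene was called. The 3 with a higher value in DKO were PSMA6, PSMD2 and PSMD10, and for PSMD10 this was a smaller fall. On its own strand PSMC5 was no longer called. Leaving out 1 library at a time gave 6 to 12 members with a lower response, with the fewest without replicate 3 of DKO cadmium, where PSMA5, PSMC1, PSMC5, PSMD6, PSMG2 and PSMA6 were lost. The size of the change was larger in WT for 34 of the 47 members (72.3%) and for 70.2% of all tested genes, so the members are near the background here. Across the 47 members the changes in WT and DKO, which share no library, had a Pearson r of 0.888 and a Spearman rho of 0.884, against an r of 0.727 over all 19393 genes.

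**Figure D4:**
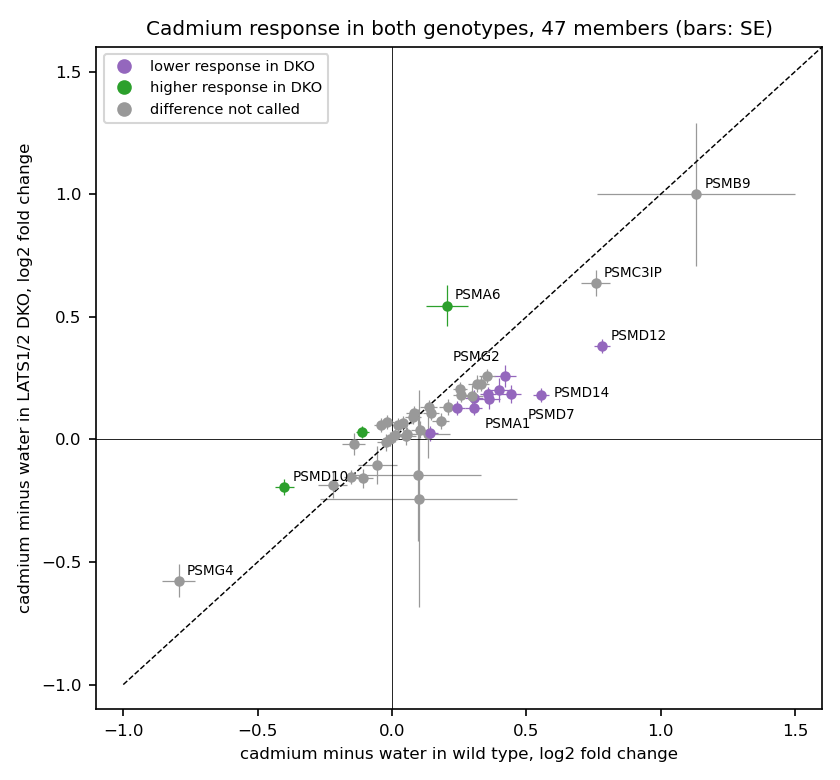
Cadmium change in WT (x axis) against DKO (y axis), log2 fold change with standard errors, for 47 members; the dashed line marks equal change. PSMD12, at 0.78 in WT and 0.38 in DKO, and PSMD14, at 0.55 and 0.18, lie furthest below the line among the called members, and PSMA6 lies above it.

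For zinc the difference of the responses was called for 9 members, 5 higher and 4 lower in DKO, where 24.6% of all genes were called (14.1% higher and 10.5% lower). Lower responses were those of PSMA1, PSMD12, PSMD14 and PSME4, and the higher values those of PSMB5, PSMD1, PSMD2, PSMF1 and PSMG3. The group of higher values rests on the processing, with 1 to 10 genes among the alternatives. In both genotypes 18 members were called higher with zinc, which is 94.7% of those higher in WT and 72% of those higher in DKO, against 71.7% and 74.7% over all tested genes. With cadmium 24 were called higher in both, which is 88.9% of those in WT and 96% of those in DKO, against 60.8% and 78.8% over all genes.

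The metals were compared directly within each genotype. In WT, 21 members were higher in cadmium than in zinc and 7 lower, where 52.3% of all genes were called (27.3% higher and 25% lower). PSMA2, PSMD12, PSMG3 and PSMD7 differed most upward, by 0.64 ± 0.09, 0.40 ± 0.03, 0.38 ± 0.04 and 0.33 ± 0.04, and PSMD10 and PSMA1 downward, by -0.43 ± 0.04 and -0.26 ± 0.04. In DKO 10 were higher and 8 lower, where 48.2% of all genes were called (24% higher and 24.3% lower). Only 1 dose of each metal was used, and these doses differ, so the comparison is between these exposures.

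Regulators and partners of the proteasome, a list of 27 tested genes that are not members, changed in both directions. With cadmium in WT 16 were higher and 4 lower, with zinc 16 and 8, and in DKO 16 and 3 with cadmium and 14 and 9 with zinc. Of all tested genes 61.7%, 61.3%, 47% and 55.9% were called in these comparisons, in the same order. With library size alone the list gave 13 higher and 8 lower, 11 and 8, 10 and 9, and 11 and 10. NFE2L1, whose product NRF1 drives subunit genes when the proteasome is impaired, stood at 164, 158 and 163 CPM in WT water, 95.5, 102 and 92.8 in zinc and 105, 109 and 108 in cadmium. In DKO it stood at 239, 234 and 231 CPM in water, 153, 155 and 159 in zinc and 189, 193 and 187 in cadmium. It was lowest in zinc in both genotypes, and no metal library reached the water libraries of its genotype. Its mRNA fell by 0.74 ± 0.03 and 0.59 ± 0.03 in WT and by 0.59 ± 0.03 and 0.31 ± 0.03 in DKO on the log2 scale, and it was higher in DKO water by 0.53 ± 0.03 (edgeR, adjusted p = 6.03e-18). NRF1 is known to be controlled at the protein level, which was not measured. DDI2, the protease that activates it, fell in WT, by 0.21 ± 0.04 with zinc and 0.27 ± 0.04 with cadmium, and in DKO it was at 0.15 ± 0.04 and -0.07 ± 0.04.

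NFE2L2, which encodes the oxidative stress factor NRF2, gave 54.0, 51.3 and 55.1 CPM in WT water, 135, 132 and 141 in zinc and 167, 174 and 180.3 in cadmium. DKO cells had 49.7, 48.7 and 50.2 CPM in water, 103, 108 and 108 in zinc and 99.9, 104 and 109 in cadmium. The groups under metal did not overlap water. AKIRIN2, an adaptor for nuclear import of proteasomes, gave 43.5, 43.8 and 49.0 CPM in WT water, 62.8, 61.9 and 74.5 in zinc and 119, 127 and 126 in cadmium, and rose by 0.54 ± 0.05 and 1.45 ± 0.05. In DKO its cadmium rise was 0.79 ± 0.05, which differed by -0.66 ± 0.07 (edgeR, adjusted p = 4.32e-09). ZFAND2A, an arsenite-induced protein that binds the regulatory particle, gave 11.2, 10.7 and 11.6 CPM in WT water, 102, 91.8 and 94.4 in zinc and 150.1, 148 and 179 in cadmium, and rose by 3.11 ± 0.07 and 3.83 ± 0.07 in WT and 3.32 ± 0.07 and 3.18 ± 0.07 in DKO. ZFAND5, a zinc finger protein that stimulates the proteasome, rose by 1.10 ± 0.03 and 1.23 ± 0.03 in WT and 0.91 ± 0.03 and 0.90 ± 0.03 in DKO.

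**Figure D5:**
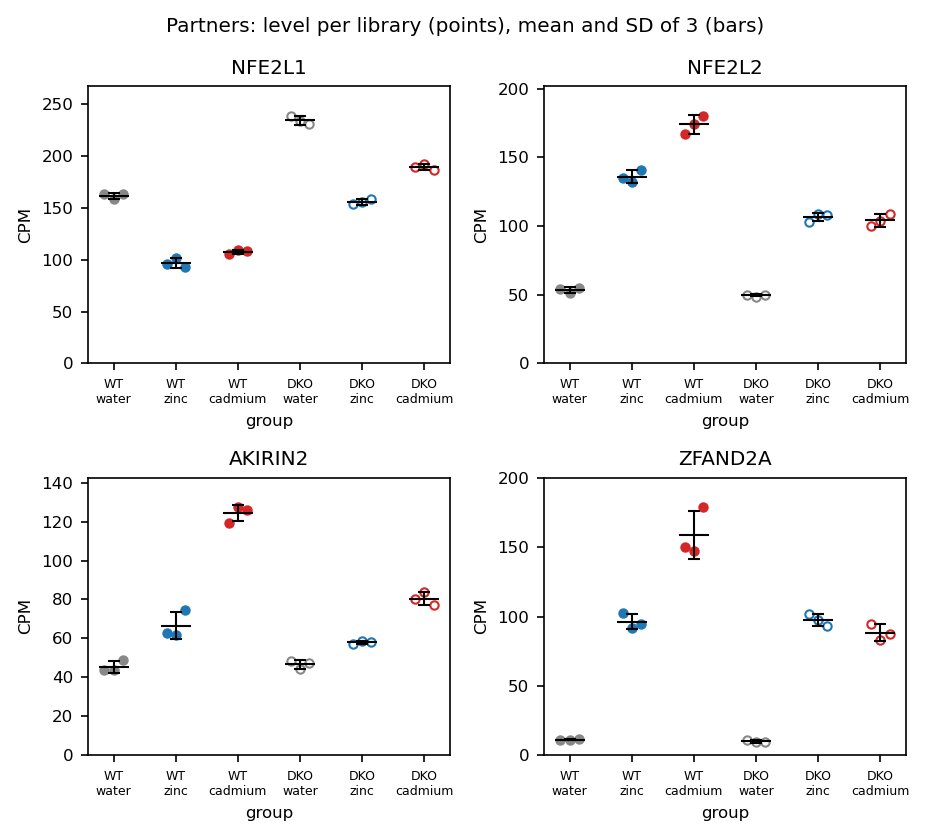
CPM (y axis, from 0) of 4 partner genes in the 6 groups (x axis), one point per library with the mean and SD over 3 libraries. NFE2L1 falls under both metals in both genotypes, while NFE2L2, AKIRIN2 and ZFAND2A rise, with ZFAND2A starting from 10.7 to 11.6 CPM in WT water.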

How the data were processed

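RNA from 18 HEK293A samples was extracted with TriZol and made into Illumina TruSeq stranded mRNA libraries, per the labels' protocols. The authors deposited raw read counts per Ensembl gene, and per the submitters' processing notes the reads were aligned with STAR to hg38, with GRCh38.p13 named as well. For the STAR version, the annotation and the counter, the entry is: not given in the sources used here. The series table holds the counts that ignore strand, and it equals that column of all 18 sample files. Of 58336 gene IDs, 58216 were found in GENCODE 29, from which symbols, coordinates and lengths were taken. The submitters call the replicates biological without saying that they were separate cultures, so p-values measure the spread between these samples, which may be technical.

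Counts were tested with edgeR 4.0.16 (R 4.3.3, TMM, filterByExpr with a minimum count of 10, quasi-likelihood test) in 1 model of the 6 groups, and p-values were adjusted by Benjamini-Hochberg over 19393 genes, with a threshold of 0.05. Differences between responses are contrasts of the same model. Standard errors are the log2 fold change divided by the square root of F, and so approximate. Counts were simulated with the real means and the same dispersion for all genes, and only genes of at least 5 CPM were changed. In them the test recovered 92% of 1.25-fold changes in the cadmium comparison in WT and 56% in the difference between genotypes. More variable genes and genes at lower levels were not covered. Comparisons with water share the water libraries of their genotype, so zinc and cadmium values of 1 genotype are not independent.

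Values in every library are given for the 3 highest and 3 lowest called members of each of the 7 main comparisons with a mean of at least 5 CPM, for the member of each role that changed most with cadmium in WT, and for members of small roles. The others are summarised, and a few of them are named with their change. The members, the lists and the rule were chosen with earlier results of these data known. Alternatives were RLE scaling, library size alone, no filter, a filter of 5 CPM in 3 libraries, DESeq2 1.42.0, a fit of only the groups compared, own-strand counts, a replicate block and leaving out each library. Promoters come from RefSeq (GRCh38.p14).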

Additional observations from a re-analysis of the deposited data

Results flagged for a closer look

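The results below are the members whose metal response differed between the genotypes in edgeR's test of the difference itself (adjusted p under 0.05). Values are the DKO response minus the WT response on the log2 scale. For zinc the difference was -0.30 for PSMA1, -0.23 for PSMD14, -0.23 for PSME4 and -0.18 for PSMD12. It was 0.16 for PSMG3, 0.14 for PSMD2, 0.14 for PSMB5, 0.13 for PSMD1 and 0.13 for PSMF1. The calls of PSMG3 and PSMD1 were lost with RLE scaling, library size alone, no filter and DESeq2. PSMB5 and PSMF1 fell with zinc in both genotypes, and by less in DKO.

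For cadmium the lid genes had differences of -0.40 for PSMD12, -0.37 for PSMD14, -0.26 for PSMD7 and -0.13 for PSMD6. Among the alpha subunits the difference was -0.20 for PSMA1, -0.18 for PSMA3 and -0.12 for PSMA5, and 0.34 for PSMA6. It was -0.16 for PSMC1 and -0.11 for PSMC5, ATPases of the base, -0.20 for the chaperone PSMG2 and -0.17 for the activator PSME4. For PSMD10, which fell with cadmium in both genotypes, it was 0.21, and for PSMD2 it was 0.14.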

How the results depend on the processing

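Precision is limited by 3 libraries a group, and for PSMB8, PSMB9 and PSMB11 by their few reads. Counts of members moved most with the scaling. With library size alone, 16 members were lower with cadmium in WT (7 with TMM), 14 were higher and 11 lower with zinc in DKO (25 and 6), and 10 were higher and 14 lower with cadmium in DKO (25 and 5). The same scaling gave 2 members with a higher zinc response in DKO (5 with TMM) and 14 members lower in cadmium than in zinc in DKO (8 with TMM). The median change of all genes moved too, from -0.01 to -0.13 for cadmium in WT and from 0.02 to -0.005 for the zinc difference. The part of this shift in the counts of members was not tested. PSMD2 with cadmium in DKO turned from 0.03 to -0.083.

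The number of members with a higher zinc response in DKO was 3 with RLE scaling, 3 with DESeq2, 1 with no filter, 9 with only the groups compared and 3 to 10 on leaving out 1 library. The number lower with zinc in WT was 6 with only the groups compared (10 in the main analysis). For the cadmium difference, no filter gave 5 members higher (3 in the main analysis) and 6 lower (11), and leaving out 1 library gave 2 to 4 higher and 6 to 12 lower. Members lower in cadmium than in zinc in DKO numbered 13 with the filter of 5 CPM and 7 to 13 on leaving out 1 library. On its own strand PSMC3IP in cadmium against zinc in DKO turned from 0.04 to -0.14. The cause of these moves was not tested either.

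With cadmium in WT, leaving out 1 library gave 23 to 27 members higher and 6 to 7 lower. PSMD4, PSMB4, PSMB9 and PSMC3 were lost without replicate 1 of WT cadmium. Whether the replicate numbers pair the samples stayed undecided. Deviations from the group means correlated at -0.0249 to 0.0864 (median 0.0163) in 45 same-numbered pairs of libraries. In 90 other pairs they correlated at -0.0665 to 0.0288 (median -0.00755). Since 0 pairs of either kind passed 0.1, that cut does not separate them. The replicate block gave 8 members with a higher zinc response in DKO (5 without it) and moved no other count of members by over 1.5 times.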
